A study of Homo sapiens with 9 samples.

Results

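The ABC genes encode proteins built around an ATP-binding cassette, and they were followed here in A549, a cell line from a human lung adenocarcinoma, before and after an intergenic *ALK* fusion was made in it. The members were the rows of the count table whose symbol is ABC, a subfamily letter from A to G and a number only. This gave 46 of the 26364 gene names. By role, 12 were drug and conjugate efflux pumps, 21 were lipid and sterol transporters, 6 were transporters of mitochondria or lysosomes, 2 were channel regulators, 4 were ribosome and translation factors, and 1 was left unclassified. The genes of the family that carry other symbols are described apart from the members.

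Most ABC proteins use ATP to move a substrate across a membrane. The efflux pumps of the B, C and G subfamilies export drugs and conjugated metabolites and are best known from multidrug resistance. The A and G subfamilies hold exporters of cholesterol and phospholipids, and most of the D subfamily imports fatty acids into peroxisomes. The E and F subfamilies have no membrane domain and act on ribosomes. In lung, *ABCA3* loads surfactant lipids into lamellar bodies of alveolar type 2 cells.

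The 9 libraries formed 4 groups. Ctrl (2 libraries) was A549 with the genotype given as wild type. *LA* (2 libraries) carried the *LOC388942-ALK* fusion, made with the guides sgLOC388942 and sgALK. The remaining groups were *LA* cells that also received a scramble guide (sgScr, 3 libraries) or a guide against *FOS* (sg*FOS*, 2 libraries). According to the methods, Cas9-expressing A549 cells were infected with lentiviruses carrying the guides and fusion strains were grown from single cells, so a difference from Ctrl can also be one between a clone and its parent population. The labels do not say whether replicates were separate cultures, and p-values then measure only the spread between these libraries, which may be technical. They also do not tell which *FOS* guide each sg*FOS* library received.

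Total counts per library ranged from 14507228 to 20456341. *FOS*, the targeted gene, had 167 and 155 counts in Ctrl, 5448 and 1660 in *LA*, 4198, 4037 and 3528 in sgScr, and 1008 and 1113 in sg*FOS*. *ALK* had 0 counts in both Ctrl libraries, 2 and 15 in *LA*, 1 to 4 in sgScr, and 2 and 0 in sg*FOS*, so counts over the whole gene did not separate every fusion library from Ctrl. Counts of sgScr and sg*FOS* replicates lay close together, at a chi-square divided by its degrees of freedom of 1.74 to 2.65, where sampling noise alone gives a value near 1. Those of Ctrl and *LA* lay far apart, at 125 and 58.1. Of 11 lung and epithelial markers, the keratins *KRT7*, *KRT8* and *KRT18* were abundant in every library (at least 27312 counts). *KRT19* had 531 to 2582 counts, *CDH1* 287 to 1816 and *EPCAM* 49 to 275. Of the markers of type 2 cells, *NKX2-1*, *SFTPA1*, *SFTPB* and *SFTPC* had at most 6 counts. *NAPSA* had more, with 68 and 21 counts in Ctrl and 9 to 21 in the other libraries. Of the leukocyte markers, the defining *PTPRC* and *CD3E* were at 0 in all libraries and *LYZ* had at most 13 counts, while *CD68*, a lysosomal protein best known from macrophages, had 382 to 688 counts in every library. The summed level of that list, nearly all of it *CD68*, was 45.5 and 46.9 CPM in sg*FOS* and 23.5 to 34.2 CPM in the other libraries.

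Of the members, *ABCA1* and *ABCA12* showed the 2 largest called changes when *FOS* was targeted, and *FOS* is a subunit of the transcription factor AP-1. Their promoters are therefore shown first. Each sequence is the 250 bases before a RefSeq transcription start, taken from the RefSeq promoter table (GRCh38.p14), matched at 1 place on its chromosome of GRCh37, and written 5′ to 3′ on the minus strand. They lie at chr9:107690437-107690686 (*ABCA1*), chr2:216003350-216003599 (*ABCA12*, window 1) and chr2:215896811-215897060 (*ABCA12*, window 2). *ABCA12* has 2 starts in that table, and the second lies inside the gene. Capitals mark CACGTG, the palindromic E-box.
ABCA1: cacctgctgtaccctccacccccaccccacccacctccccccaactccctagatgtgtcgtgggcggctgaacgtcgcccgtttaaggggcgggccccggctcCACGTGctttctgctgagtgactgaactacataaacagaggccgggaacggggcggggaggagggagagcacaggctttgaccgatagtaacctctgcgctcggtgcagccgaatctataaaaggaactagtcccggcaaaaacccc
ABCA12 window 1: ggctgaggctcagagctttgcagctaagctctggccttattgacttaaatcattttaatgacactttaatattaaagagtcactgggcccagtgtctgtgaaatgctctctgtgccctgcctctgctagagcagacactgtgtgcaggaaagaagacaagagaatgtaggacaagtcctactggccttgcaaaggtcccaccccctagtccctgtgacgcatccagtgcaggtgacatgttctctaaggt
ABCA12 window 2: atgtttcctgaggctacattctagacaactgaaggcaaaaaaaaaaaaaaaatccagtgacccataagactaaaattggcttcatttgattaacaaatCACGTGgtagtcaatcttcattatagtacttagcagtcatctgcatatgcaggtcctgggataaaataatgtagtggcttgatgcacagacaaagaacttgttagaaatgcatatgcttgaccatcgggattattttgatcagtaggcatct

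The AP-1 consensus was searched as TGANTCA and the E-box as CACGTG. Both read the same on either strand, and they share no bases with each other here. None of the 3 windows holds TGANTCA, and this says only that these letters do not occur in these windows. CACGTG begins at -147 relative to the start of *ABCA1* and at -152 relative to the second start of *ABCA12*. Among the 35116 promoter windows of that length in the table, 6.57% held TGANTCA and 6.34% held CACGTG. For the ABC genes, 35 members had 53 windows, of which 5 held TGANTCA (in *ABCA10*, *ABCB1*, *ABCB11*, *ABCC11* and *ABCD2*) and 9 held CACGTG (in *ABCA1*, *ABCA12*, *ABCA9*, *ABCB6*, *ABCB9*, *ABCC10*, *ABCF1* and *ABCG2*).

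Levels are given as CPM, read counts scaled to library size, with TMM factors that adjust the sizes so that most genes keep their level. In bulk RNA, fewer cells with a transcript and less of it per cell cannot be told apart. Summed over all members, the level was 2333 and 2149 CPM in Ctrl and 3589 and 3678 CPM in *LA*. It was 3265, 3211 and 3188 CPM in sgScr and 3256 and 3263 CPM in sg*FOS*. All 7 fusion libraries therefore lay above both Ctrl libraries, and the sgScr and sg*FOS* libraries overlapped. Efflux pumps made up most of this sum, with 51.8% and 57.5% of member reads in Ctrl, 69.2% and 71.1% in *LA*, 66.9% to 67.8% in sgScr, and 66.5% and 66.9% in sg*FOS*. Lipid and sterol transporters took 10.0% to 12.5% of member reads in every library. The ribosome and translation class took 22.1% and 20.52% in Ctrl and 11.3% to 14.52% in the fusion libraries. These sums and shares were not corrected for transcript length, with which the change in *LA* against Ctrl rose over all genes, as described further on.

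**Figure D1:**
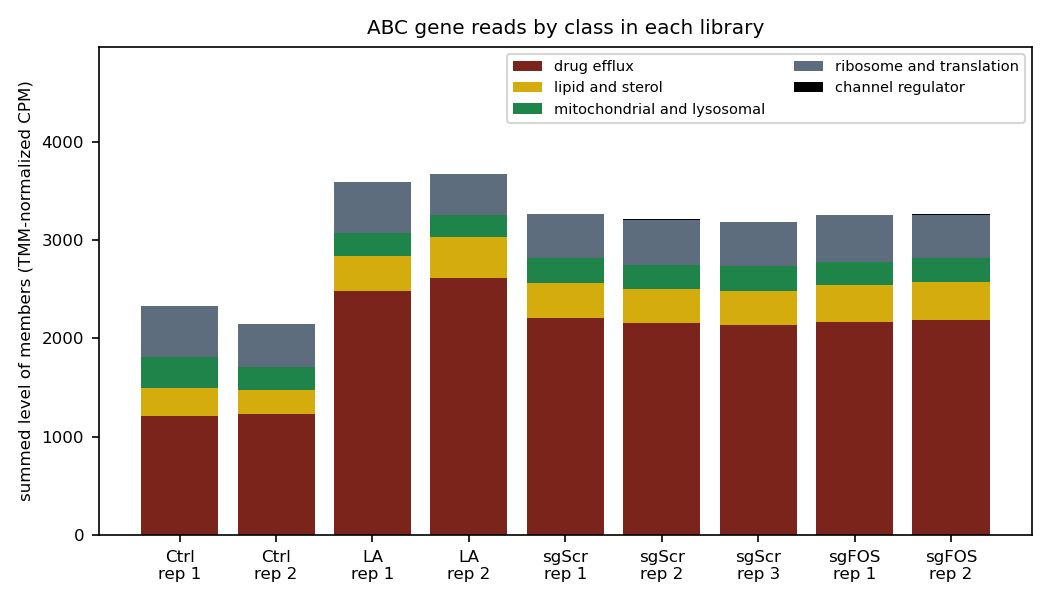
Summed TMM-normalized CPM of the ABC members in each of the 9 libraries, stacked by class, with 1 bar per library and no correction for transcript length. The bars of the 7 fusion libraries reach 3188 to 3678 CPM and those of Ctrl 2149 and 2333 CPM, and the drug efflux segment accounts for most of the gap.

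The sum was carried by a few genes. *ABCC1*, *ABCC2* and *ABCC3*, which encode the conjugate exporters MRP1, MRP2 and MRP3, together held 44.6% and 46.1% of member reads in Ctrl and 60.3% and 62.2% in *LA*. Their share was 55.5% to 56.8% in the other fusion libraries. Divided by transcript length, the levels in Ctrl were 83.7 and 61.3 CPM per kb for *ABCC3*, 58.4 and 44.1 for *ABCC1*, and 31.0 and 60.3 for *ABCC2*. The ranges of *ABCC1* and *ABCC2* overlapped there, so their order is not set. In *LA* the levels were 128 and 167 CPM per kb for *ABCC3*, 128 and 120 for *ABCC2*, and 105 and 97.0 for *ABCC1*. In sg*FOS*, *ABCC2* at 112 and 114.5 CPM per kb lay above *ABCC3* at 102 and 106, while in sgScr the ranges of those genes overlapped. *ABCE1*, *ABCF1*, *ABCF2* and *ABCG2* came next in all fusion groups, each at a mean of 24.5 to 43.4 CPM per kb.

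The rest of the family spanned a wide range. On the CPM scale, 20 of the 46 members had a mean over 10 CPM in every group. At the other end, 1 member had no read in any library, and 6 had 1 to 9 reads over all libraries together: *ABCA13* (2 reads), *ABCB11* (3), *ABCG8* (4), *ABCD2* (6), *ABCA6* (8) and *ABCA9* (9). A further 11 had 10 to 200 reads, among them *ABCB1*, which encodes the drug pump P-glycoprotein. In all, 34 members passed the expression filter in at least 1 comparison, 32 of them in *LA* against Ctrl, 31 in sg*FOS* against sgScr and 34 in sgScr against *LA*.

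**Figure D2:**
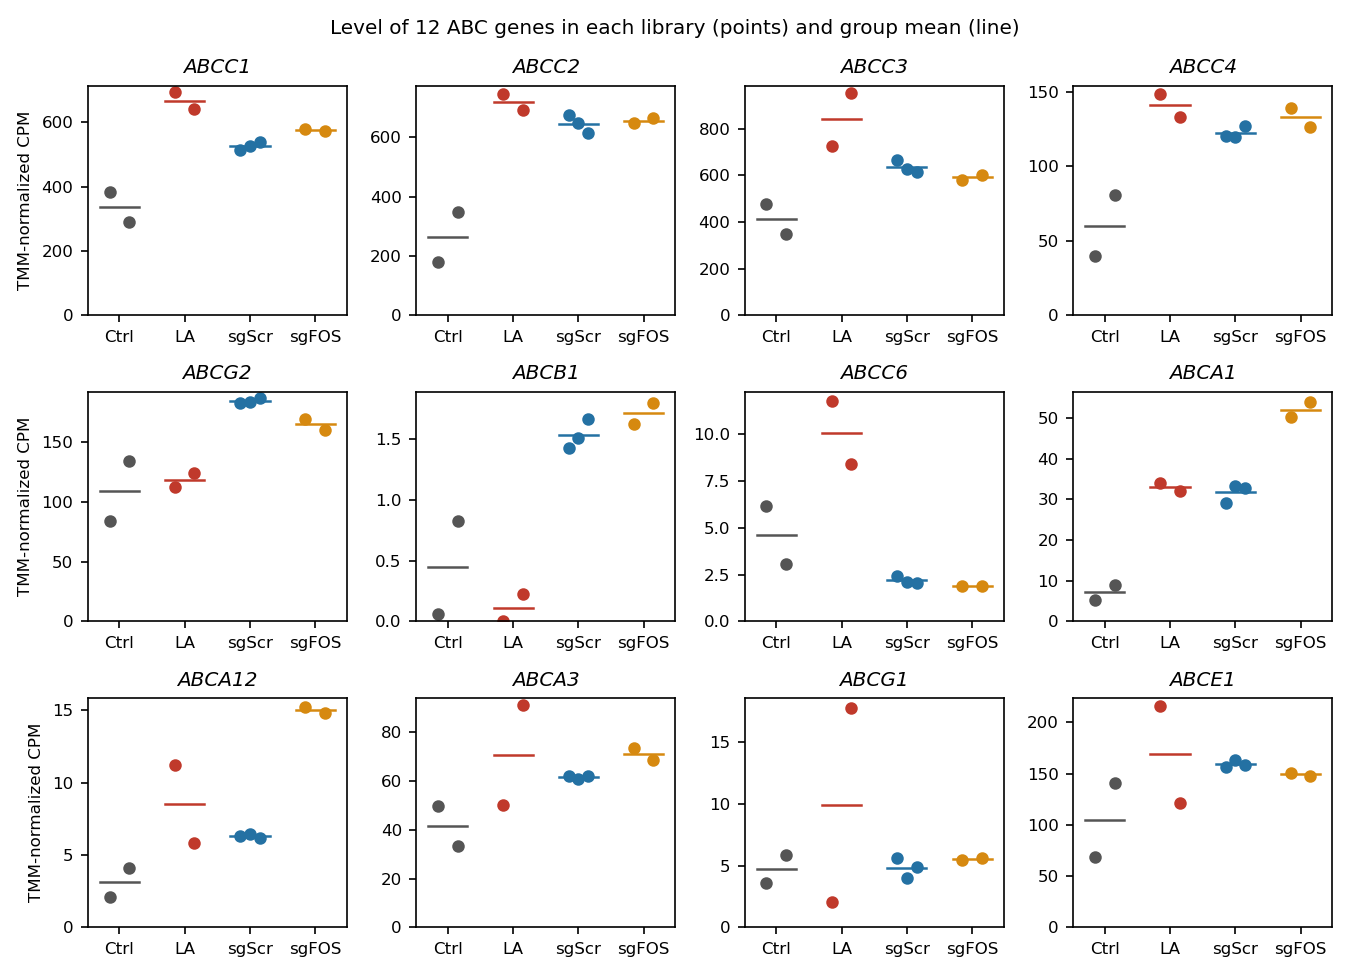
TMM-normalized CPM (linear axes from 0, scaled to each gene) of 12 ABC genes, with 1 point per library and a line at the group mean. *ABCC1*, *ABCC2*, *ABCC3*, *ABCC4* and *ABCA1* lie higher in all 7 fusion libraries than in both Ctrl libraries, *ABCA1* and *ABCA12* lie highest in sg*FOS*, and for *ABCC2*, *ABCC4* and *ABCE1* the Ctrl points lie further apart than those of sgScr or sg*FOS*.

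The first comparison, *LA* against Ctrl, asked how the family differed between fusion cells and A549 cells without the fusion. With edgeR's quasi-likelihood test and a Benjamini-Hochberg adjusted p under 0.05 over all genes tested, 3 of 32 members rose in *LA*, which were the efflux pumps *ABCC2* and *ABCC4* and the cholesterol exporter *ABCA1*. Among all genes, 9.57% were called higher, so a share of 3 in 32 is near the background. None was called lower, where the background was 9.94%. At an unadjusted p under 0.05 edgeR gave 0 lower members, and so did the Wald test of DESeq2 after adjustment. The median log2 fold change was 0.63 over the members and 0.044 over all genes. At the threshold of the study's methods, an unadjusted p under 0.05 with an absolute log2 fold change over 0.5, 10 members were higher (background 17.4%) and 0 were lower (background 17.1%).

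*ABCA1* (chromosome 9, 107543287 to 107690436 on GRCh37, minus strand) loads cellular cholesterol and phospholipids onto apolipoprotein A-I. Its level was 5.36 and 8.85 CPM in Ctrl and 34.0 and 32.0 CPM in *LA*, without overlap. It was 4.55-fold higher, a log2 fold change of 2.18 with a standard error of 0.46 (adjusted p = 0.0028 with edgeR). Without *LA* replicate 1 the adjusted p of *ABCA1* was 0.0583 at a log2 fold change of 2.11. The level in sgScr (29.1, 33.3 and 32.9 CPM) was like that in *LA*, and sg*FOS* was higher still at 50.1 and 53.9 CPM.

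*ABCC2* (chromosome 10, 101542397 to 101612351, plus strand), the canalicular exporter of bilirubin and drug conjugates in liver, was at 180 and 350 CPM in Ctrl and at 745 and 694 CPM in *LA*. The change was 1.41 on the log2 scale (standard error 0.44, adjusted p = 0.0275 with edgeR). *ABCC4* (chromosome 13, 95672089 to 95953729, minus strand), an exporter of cyclic nucleotides and nucleoside analogues, was at 39.6 and 80.6 CPM in Ctrl and at 149 and 133 CPM in *LA*. It changed by 1.199 on the log2 scale (standard error 0.42, adjusted p = 0.0482 with edgeR). For both genes Ctrl replicate 1 was well below Ctrl replicate 2, and the groups did not overlap. Both calls were lost without *LA* replicate 1 (adjusted p = 0.310 for *ABCC2* and 0.411 for *ABCC4*), without *LA* replicate 2 (0.272 and 0.323) and without Ctrl replicate 1 (0.127 and 0.209), and that of *ABCC4* with the replicate number as a block (0.115).

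The other abundant pumps pointed the same way without passing the test. *ABCC3* was at 476 and 349 CPM in Ctrl and at 727 and 953 CPM in *LA*, a log2 fold change of 1.00 (95% interval 0.13 to 1.87, adjusted p = 0.0946 with edgeR). *ABCC1* was at 385 and 291 CPM in Ctrl and at 693 and 640 CPM in *LA*, a log2 fold change of 0.96 (0.10 to 1.82, adjusted p = 0.103 with edgeR). *ABCC5*, an exporter of nucleotide analogues, was at 20.49 and 14.3 CPM in Ctrl and at 28.3 and 34.3 CPM in *LA*, which gave 0.82 on the log2 scale (adjusted p = 0.173 with edgeR). None of these genes had overlapping groups, and both *LA* libraries lay above both Ctrl libraries in 33.8% of all genes as well. *ABCG2*, the breast cancer resistance protein, did overlap, at 84.2 and 134 CPM in Ctrl against 113 and 125 CPM in *LA*, and its log2 fold change of 0.09 had an interval from -0.74 to 0.92 and turned to -0.40 once length and GC content were corrected for, as described further on. *ABCB1* had 1 and 14 counts in Ctrl and 0 and 4 counts in *LA*, too few for the filter.

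By class, all 9 efflux pumps tested had a log2 fold change above 0, with a median of 1.00, and 2 were called (background 9.57%). Once length and GC content were corrected for, 8 of the 9 lay above 0 and 0 were called (background 5.33%). The lipid and sterol class had 11 of 12 above 0, a median of 0.88 and 1 call (background 9.57%). Most genes of similar length also lay above 0. For all genes tested with a median length of 5311 bases, the middle 50% ran from 0.015 to 1.00. Among its members that missed the test, *ABCA12*, a lipid transporter needed for the skin barrier, was at 2.13 and 4.13 CPM in Ctrl and at 11.2 and 5.81 CPM in *LA* (log2 fold change 1.41, adjusted p = 0.0820 with edgeR). *ABCA3* was at 49.8 and 33.1 CPM in Ctrl and at 50.2 and 91.0 CPM in *LA* (0.74, adjusted p = 0.212 with edgeR). Neither the 6 mitochondrial and lysosomal members, with a median of -0.28, nor the 4 ribosome and translation members, with a median of -0.30, held a call (background 9.57% higher and 9.94% lower).

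**Figure D3:**
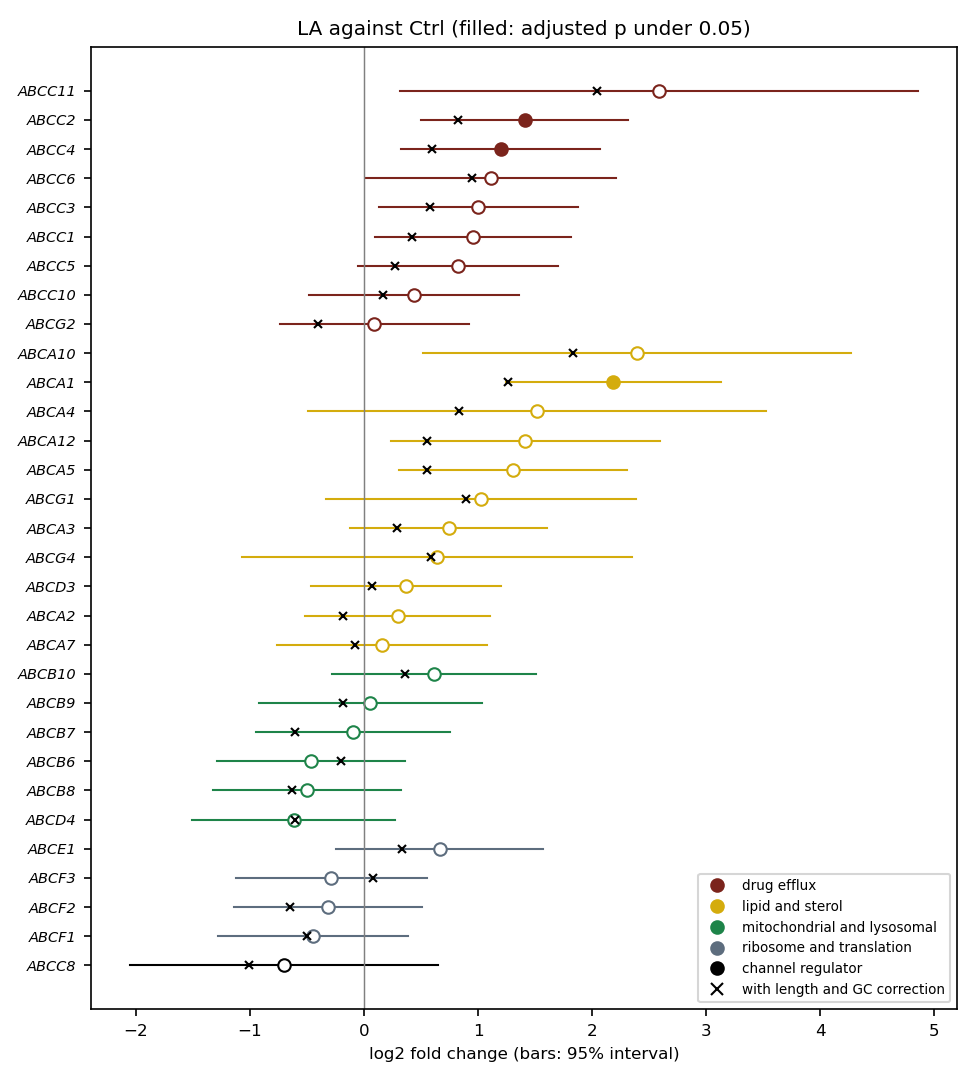
Log2 fold change of 31 of the 32 tested ABC members in *LA* against Ctrl, grouped by class, with 95% intervals from edgeR. Filled points are the 3 called genes (*ABCC2*, *ABCC4* and *ABCA1*), and crosses give the value once length and GC content were corrected for, which is nearer to 0 for all efflux pumps tested except *ABCG2*.

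Complete separation of the libraries was common in this comparison. In 14 of 32 members both *LA* libraries lay above both Ctrl libraries, where 33.8% of all genes did so. In 4 members (*ABCB6*, *ABCC8*, *ABCD4* and *ABCF3*) both lay below, against 30.0% of all genes. Over all 7 fusion libraries, 8 members lay above both Ctrl libraries (*ABCA1*, *ABCA3*, *ABCA12* and *ABCC1* to *ABCC5*), where the background was 24.6%, and 0 lay below, where it was 22.6%.

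Transcript length moved with these values. Across the genes tested, the log2 fold change rose with transcript length (Spearman's rho 0.561 across genes, which are not independent replicates) and fell with GC content (rho -0.307). When the genes were put in 10 bins of about equal size by length, the median log2 fold change was -1.26 in the shortest bin, whose median length was 987 bases, and 1.03 in the longest, at 9577 bases. The ABC members tested had a median transcript length of 5238 bases, against 3440 bases for all genes tested. In the bin with a median length of 5311 bases, near that of the members, the median log2 fold change over all genes was 0.53. This length trend and the fusion differ between the same groups of libraries and cannot be told apart.

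When length and GC content were corrected for within each library, the median over the members fell from 0.63 to 0.28, that of the efflux pumps from 1.00 to 0.58 and that of the lipid and sterol class from 0.88 to 0.55. Called members then numbered 1 higher, where the background was 5.33%, and 0 lower, where it was 6.45%. *ABCA1* kept its call, with a log2 fold change of 1.27 (adjusted p = 0.0277 with edgeR). *ABCC2* fell to 0.83 (adjusted p = 0.0944) and *ABCC4* to 0.60 (adjusted p = 0.159), both with edgeR. The number of members called higher without the correction also moved when a library was left out, to 0 without *LA* replicate 1, to 1 without *LA* replicate 2 or without Ctrl replicate 1, and to 6 without Ctrl replicate 2.

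**Figure D4:**
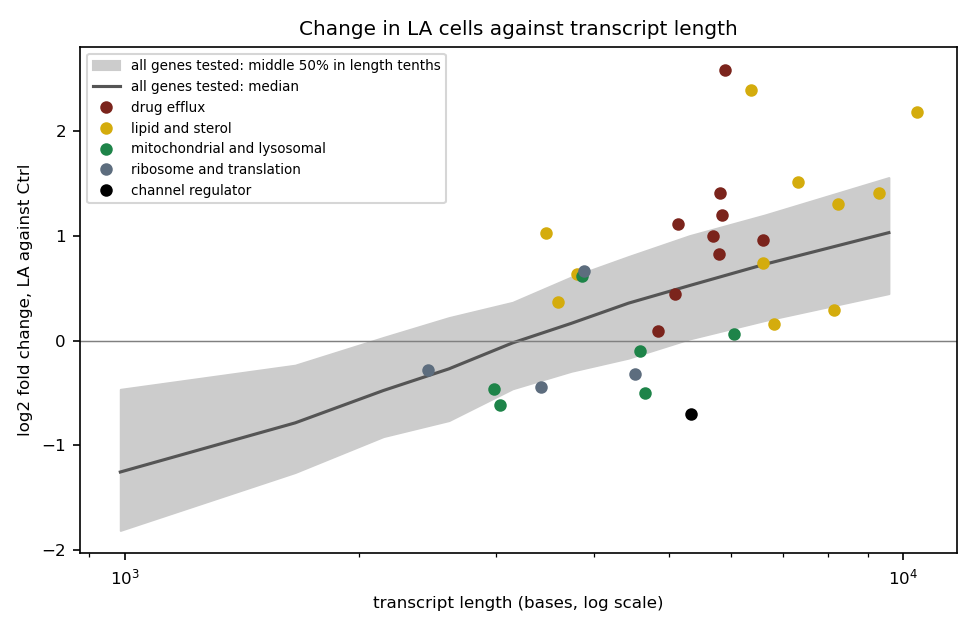
Log2 fold change in *LA* against Ctrl (y axis) of 31 of the 32 tested ABC members, coloured by class, against transcript length in bases (log x axis). The line and band give the median and the middle 50% of all genes tested in 10 bins of length, rising from -1.26 to 1.03, and *ABCA1* at 10413 bases and a log2 fold change of 2.18 lies above the band.

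The second comparison, sg*FOS* against sgScr, asked what targeting *FOS* changed in cells that all carried the fusion. *FOS* itself fell by 1.48 on the log2 scale (standard error 0.044). The libraries of this comparison were alike within groups, with a biological coefficient of variation of 0.0296 against 0.329 in *LA* against Ctrl, so small differences passed the test. Of 31 members tested, 7 rose (background 12.2%) and 3 fell (background 10.5%). The 2 largest changes were both in lipid transporters, *ABCA12* and *ABCA1*.

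*ABCA12* (chromosome 2, 215796266 to 216003349, minus strand) was at 6.33, 6.42 and 6.21 CPM in sgScr and at 15.2 and 14.8 CPM in sg*FOS*. It was 2.38-fold higher with sg*FOS*, a log2 fold change of 1.25 with a standard error of 0.12 (adjusted p = 3.0e-10 with edgeR). *ABCA1* was at 29.1, 33.3 and 32.9 CPM in sgScr and at 50.1 and 53.9 CPM in sg*FOS*. It was 1.65-fold higher, a log2 fold change of 0.72 with a standard error of 0.065 (adjusted p = 4.2e-11 with edgeR). For both genes the groups were far apart relative to the spread within them, and the sg*FOS* level was above that of all Ctrl, *LA* and sgScr libraries. At the threshold of the study's methods these were the 2 members called higher (background 3.73%), and 0 were called lower (background 2.03%). Fitting all 9 libraries together, which brings in the wide spread of Ctrl and *LA*, left *ABCA12* at an adjusted p of 0.777 and *ABCA1* at 1.00 with nearly the same fold changes (1.24 and 0.71).

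*ABCA3* was at 62.1, 60.7 and 61.9 CPM in sgScr and at 73.5 and 68.4 CPM in sg*FOS*, a log2 fold change of 0.21 (adjusted p = 0.0021 with edgeR). Of 11 lipid and sterol members tested, 4 rose (background 12.2%) and 0 fell (background 10.5%), with 0 lower in edgeR at an unadjusted p under 0.05 and in DESeq2 as well, and the median was 0.19. With the length and GC correction 2 rose (*ABCA1* and *ABCA12*, background 8.89%) and 2 fell (*ABCA2* and *ABCA7*, background 10.2%), and the median was 0.09. *ABCG1*, which exports cholesterol to lipoproteins as *ABCA1* does, was at 5.62, 4.04 and 4.88 CPM in sgScr and at 5.43 and 5.59 CPM in sg*FOS* (0.19, 95% interval -0.17 to 0.55). The call of *ABCA3* was lost in edgeR without sg*FOS* replicate 1 (adjusted p = 0.123).

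The efflux pumps moved little and in both directions, with 2 of 9 higher (background 12.2%), 2 of 9 lower (background 10.5%) and a median of 0.03. With the length and GC correction 1 was higher (background 8.89%) and 1 lower (background 10.2%), and the median was -0.05. *ABCC1* was at 515, 526 and 538 CPM in sgScr and at 579 and 573 CPM in sg*FOS*, a rise of 0.14 on the log2 scale (adjusted p = 0.0027 with edgeR). *ABCC4* was at 120, 120 and 127 CPM in sgScr and at 139 and 127 CPM in sg*FOS*, a rise of 0.13 (adjusted p = 0.0282 with edgeR). For *ABCC4* the lower sg*FOS* library and the highest sgScr library were thus nearly level. In edgeR without sg*FOS* replicate 1 the adjusted p was 0.0545 for *ABCC1* and 0.575 for *ABCC4*, and for *ABCC4* it was 0.0775 and 0.104 without sgScr replicates 1 and 2 and 0.121 with DESeq2.

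The pumps that fell were *ABCG2* and *ABCC3*. *ABCG2* was at 183, 184 and 187 CPM in sgScr and at 169 and 161 CPM in sg*FOS*, so that it fell by 0.16 (adjusted p = 0.0023 with edgeR). *ABCC3* was at 666, 627 and 615 CPM in sgScr and at 581 and 603 CPM in sg*FOS*, so that it fell by 0.10 (adjusted p = 0.0407 with edgeR). *ABCC2*, at 675, 647 and 616 CPM against 647 and 665 CPM, had a log2 fold change of 0.03 with an interval from -0.05 to 0.10, and its sign was not stable across settings. For *ABCB1*, with 24 to 31 counts in each library, the interval ran from -0.43 to 0.77. In edgeR the adjusted p of *ABCG2* was 0.110 without sg*FOS* replicate 2, and that of *ABCC3* was 0.240 and 0.0822 without sgScr replicates 1 and 2 and 0.335 and 0.0636 without sg*FOS* replicates 1 and 2.

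In the other classes, *ABCB6*, a porphyrin transporter, was at 90.3, 86.9 and 92.0 CPM in sgScr and at 75.0 and 81.2 CPM in sg*FOS*, so that it fell by 0.20 (adjusted p = 0.0019 with edgeR). It was the only call among 6 mitochondrial and lysosomal members (background 12.2% higher and 10.5% lower). *ABCF3*, at 32.7, 37.2 and 37.3 CPM in sgScr and 43.4 and 37.9 CPM in sg*FOS*, rose by 0.19 (adjusted p = 0.0433 with edgeR). This was the only call among 4 ribosome and translation members, against the same backgrounds. *ABCE1*, which recycles ribosomes after termination, was not called, at -0.09 on the log2 scale (adjusted p = 0.0802 with edgeR). Without sg*FOS* replicate 1 the adjusted p in edgeR was 0.121 for *ABCB6* and 0.579 for *ABCF3*, and for *ABCF3* it was 0.217 without sgScr replicate 1 and 0.188 with DESeq2.

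**Figure D5:**
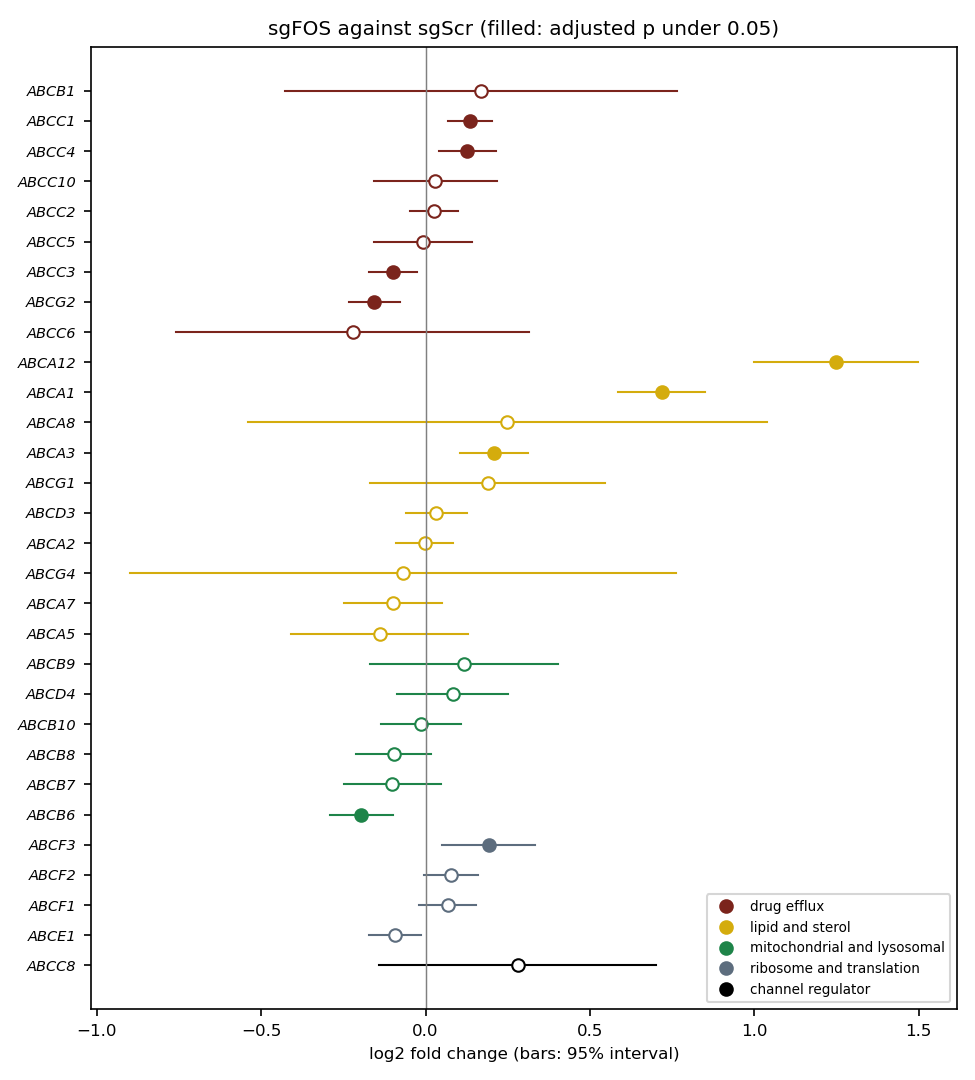
Log2 fold change of 30 of the 31 tested ABC members in sg*FOS* against sgScr, grouped by class, with 95% intervals from edgeR. Filled points are called genes, and *ABCA12* at 1.25 and *ABCA1* at 0.72 lie apart from the rest, which are between -0.22 and 0.28.

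Both sg*FOS* libraries lay above all sgScr libraries in 7 members (background 24.0%) and below them in 6 (background 24.5%). Fold changes rose with GC content in this comparison (rho 0.258 across genes) and hardly moved with length (rho -0.0189). With the correction, 3 members were called higher (*ABCA1*, *ABCA12* and *ABCC4*, background 8.89%) and 5 lower (*ABCB6*, *ABCC3*, *ABCB8*, *ABCA7* and *ABCA2*, background 10.2%). The log2 fold changes of *ABCA1* and *ABCA12* were then 0.71 and 1.27, and *ABCA3*, *ABCC1*, *ABCF3* and *ABCG2* lost their calls, with adjusted p-values from edgeR of 0.264, 0.394, 0.159 and 0.0842. Without sg*FOS* replicate 1 the called members numbered 3 higher (*ABCA1* and *ABCA12* among them) and 1 lower, without sg*FOS* replicate 2 they numbered 6 and 1, and without sgScr replicate 1 they numbered 4 and 2. Without sgScr replicate 2 the members called lower numbered 2.

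The third comparison, sgScr against *LA*, set fusion cells with a scramble guide against fusion cells without one. The guide and whatever else differed between these libraries cannot be told apart. Of 34 members tested, 3 rose (*ABCB1*, *ABCG2* and *ABCB6*, background 10.6%) and 4 fell (*ABCC6*, *ABCC11*, *ABCB9* and *ABCC1*, background 12.3%). The median over the members was -0.13, and that over all genes was -0.016. With the length and GC correction the median over the members turned to 0.02, and the members above 0 went from 9 to 19 of 34. The calls in both directions were near the background. At the study's threshold 4 members were higher (background 10.7%) and 6 were lower (background 15.2%), and with the length and GC correction 3 were called higher (background 15.5%) and 4 lower (background 13.1%). Those lower with the correction were *ABCC6*, *ABCC11*, *ABCC3* and *ABCA4*, of which 2 were also called without it. *ABCA4* had only 9 and 13 counts in *LA* and 2, 4 and 0 in sgScr. It passed the expression filter only through *LA*, the group where it was high.

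*ABCB1* (chromosome 7, 87132333 to 87342639, minus strand) had 0 and 4 counts in *LA* and 30, 31 and 29 counts in sgScr, with 24 and 27 in sg*FOS* and 1 and 14 in Ctrl. *ABCB1* passed the expression filter of this comparison only through sgScr, the group where it was high. The *LA* and sgScr libraries did not overlap, and the adjusted p was 0.0208 with edgeR. Neither is support independent of that filter. The fitted log2 fold change of 3.62 depends on how the count of 0 is handled. The mean of sgScr was at least 8.32-fold above *LA* replicate 1, whose level was set to that of 3 counts, and 6.86-fold above *LA* replicate 2 with its 4 counts. The adjusted p was 0.0807, 0.0884 and 0.0964 with edgeR without sgScr replicates 1, 2 and 3, respectively.

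*ABCG2* (chromosome 4, 89011302 to 89152780, minus strand) was at 113 and 125 CPM in *LA* and at 183, 184 and 187 CPM in sgScr, a log2 fold change of 0.61 (adjusted p = 0.0078 with edgeR, and 0.0607 to 0.0703 without any 1 of the sgScr replicates). *ABCB6* was at 67.6 and 70.2 CPM in *LA* and at 90.3, 86.9 and 92.0 CPM in sgScr, a log2 fold change of 0.36 (adjusted p = 0.0283 with edgeR, and 0.129 to 0.142 without an sgScr replicate), and it shares 54.6% of its exonic bases with an unnamed gene on the same strand that is not in the count table. *ABCC6* (chromosome 16, 16243422 to 16317379, minus strand), a liver exporter tied to ATP release, was at 11.7 and 8.39 CPM in *LA* and at 2.43, 2.09 and 2.07 CPM in sgScr, so that it fell by 2.21 on the log2 scale (standard error 0.22, adjusted p = 0.0032 with edgeR). Its Ctrl libraries were at 6.14 and 3.07 CPM and its sg*FOS* libraries at 1.90 and 1.86 CPM. *ABCC6* has near-identical pseudogene copies, *ABCC6P1* with 1 to 29 counts and *ABCC6P2* with 3 to 22 counts per library, so its own count is uncertain. *ABCC1*, its neighbour on chromosome 16 (16042995 to 16237114), fell by 0.36 (adjusted p = 0.0286 with edgeR, and 0.133 to 0.165 without an sgScr replicate), a call that was lost with the length and GC correction (-0.24, adjusted p = 0.228 with edgeR).

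*ABCC11* had 11 and 16 counts in *LA* and 6, 3 and 2 counts in sgScr (adjusted p = 0.0337 with edgeR, 0.0756 to 0.138 without an sgScr replicate and 0.0651 with DESeq2). It passed the expression filter only through *LA*, the group where it was high, so its call is not support independent of that filter. *ABCB9*, a lysosomal peptide transporter, was at 11.1 and 12.5 CPM in *LA* and at 7.43, 7.05 and 7.24 CPM in sgScr (adjusted p = 0.0196 with edgeR, and 0.0989 to 0.116 without an sgScr replicate). The call of *ABCB9* was lost with the length and GC correction, where its log2 fold change went from -0.72 to -0.47 (adjusted p = 0.0668 with edgeR). *ABCB9* shares 11.97% and 12.5% of its exonic bases with *ARL6IP4* and *OGFOD2* on the opposite strand, and the counting of strand is not stated. With the replicate number as a block the calls numbered 1 higher (*ABCB1*) and 1 lower (*ABCC6*), and the adjusted p from edgeR was 0.0875 for *ABCG2*, 0.317 for *ABCB6*, 0.296 for *ABCC1*, 0.165 for *ABCB9* and 0.160 for *ABCC11*. Without any 1 of the sgScr replicates they were 0 higher and 1 lower (*ABCC6*). Leaving out a *LA* replicate left 1 library in that group, the spread then being taken from sgScr alone. The calls then rose in number in both directions, and no share over all genes was taken under that setting.

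Genes that act with the ABC proteins were read against the same backgrounds. *TAP1*, an ABC peptide transporter under another symbol, rose by 0.34 in sg*FOS* against sgScr (adjusted p = 1.2e-04 with edgeR), and was the only call in any comparison among the 2 tested of 3 such genes, *CFTR* having passed no filter. Of 11 tested genes of sterol sensing and efflux, 0 were called in *LA* against Ctrl, where edgeR gave 0 higher and 1 lower at an unadjusted p under 0.05. In sg*FOS* against sgScr 2 of the 11 fell (background 10.5%), namely *MYLIP*, which degrades the LDL receptor (by 0.53, adjusted p = 6.6e-04 with edgeR), and *SREBF1*, a regulator of lipid synthesis (by 0.19, adjusted p = 2.6e-04 with edgeR). With the length and GC correction 4 of the 11 were called lower (background 10.2%), *NR1H2* (adjusted p = 0.0086 with edgeR) and *SREBF2* (8.1e-04) in addition. In the same list *APOE* (0.35) and *LPCAT3* (0.0041) were not called. *MYLIP*, *SREBF1*, *ABCA1* and *ABCG1* are known targets of the liver X receptors, and a role of these receptors was not tested. In sgScr against *LA*, *RXRA* rose by 0.52 (adjusted p = 0.0233 with edgeR), and *SREBF1* and *APOE* fell, *APOE* by 1.14 (adjusted p = 0.0145 with edgeR), so that 1 of the 11 was called higher (background 10.6%) and 2 lower (background 12.3%). With the correction *APOE* lost its call (-0.96, adjusted p = 0.0539 with edgeR), and 3 were called higher (*RXRA*, *RXRB* and *NR1H2*, background 15.5%) and 1 lower (*SREBF1*, background 13.1%).

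Of 8 tested genes of xenobiotic sensing and membrane anchoring, *AHR*, the dioxin receptor, and *RDX*, which holds *ABCC2* at the apical membrane, rose in *LA* against Ctrl (2 of 8, background 9.57%). Their log2 fold changes were 1.81 (adjusted p = 0.0076) for *AHR* and 1.58 (adjusted p = 0.0173) for *RDX*, both with edgeR. With the length and GC correction they were 1.16 (adjusted p = 0.0401) and 1.14 (adjusted p = 0.0368), and they were again the 2 called (background 5.33%). In sg*FOS* against sgScr, *MVP*, the major vault protein, rose by 0.31, and in sgScr against *LA* no gene of this list was called by edgeR, with 0 higher and 2 lower at an unadjusted p under 0.05. Of 7 genes of ribosome recycling and translation control, 0 were called by edgeR in any comparison, with 0 to 1 higher and 0 to 2 lower at an unadjusted p under 0.05.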

How the data were processed

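RNA-seq was done in 9 libraries of A549 cells. The authors deposited raw counts: the whole number of reads on each gene, not normalized. Per the methods and the submitters' processing notes, these were stranded mRNA libraries with paired-end reads, aligned to hg19 with STAR 2.7.10b, and DESeq2 1.26.0 was used for differential expression. How reads were counted on genes (program, annotation, use of strand) is not given in the sources used here.

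Each comparison was fitted on its own libraries with edgeR 4.0.16 in R 4.3.3 (TMM, filterByExpr, quasi-likelihood test). Tests were two-sided, with Benjamini-Hochberg adjustment over all genes tested, and calls needed an adjusted p under 0.05. Intervals used the moderated degrees of freedom and cover the spread between libraries. The limit set by a count of 0 was taken as 3 counts, for counting error only. As alternatives, DESeq2 1.42.0 was run, its size factors were used in edgeR, and edgeR was run with library size alone, no filter, a mean of at least 50 counts, all 9 libraries in a single fit, a replicate block, a loess correction for length and GC content (span 0.5, as an offset), the study's threshold, and leaving out each replicate. Procedures were tested on simulated data with 200 changed genes. Summaries used Python 3.11.15, and figures matplotlib 3.10.9.

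Positions and transcript lengths came from GENCODE on GRCh37, the build also called hg19, and 24688 of 26364 gene names had a length, 2194 of them through an older symbol. The members and lists were chosen with earlier results of these data known. Values per library are given for members called in *LA* against Ctrl or sg*FOS* against sgScr and for *ABCB1*, *ABCC1*, *ABCC2*, *ABCC3* and *ABCG2*. Other members are given by counts and ranges, and those named beyond that rule were chosen after their values were seen. The rule for related genes was to name the largest called change of a list in a direction. Related genes named beyond it were also chosen after their values were seen. Some genes that the rules would name are not reported here, and they are left out of the plots of single genes but not of the counts.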

Additional observations from a re-analysis of the deposited data

How the results depend on the processing

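No fold change of a member that was called in the main fit reversed its sign under any alternative. Among members tested but not called, the sign changed under at least 1 alternative in 9 of 29 in *LA* against Ctrl, 11 of 21 in sg*FOS* against sgScr and 14 of 27 in sgScr against *LA*. Of those given above, *ABCG2* ran from -0.41 to 0.41 in *LA* against Ctrl, and *ABCC2* from -0.0068 to 0.057 in sg*FOS* against sgScr. In sgScr against *LA*, *ABCG1* went from -1.06 to 1.19 without *LA* replicate 2. *ABCE1* went from -0.10 to 0.39 there without *LA* replicate 1. The direction of such members thus depended on which *LA* library was used. In *LA* against Ctrl, 3 members were called higher. The number was 5 with DESeq2, 5 with library size alone, which moves the median of all genes to 0.33, 12 with all 9 libraries in a single fit, 1 with the length and GC correction, 1 with the replicate block and that correction together, 10 at the study's threshold, and 0 to 6 without a replicate. Called lower were 0 members, and 0 to 1 without a replicate. *ABCA1* kept its call in 13 of 14 alternatives, *ABCC2* in 9 and *ABCC4* in 8. The 14 include a crossed pairing chosen after seeing the data, described below, in which each of these genes kept its call. In sg*FOS* against sgScr, 7 members were called higher, and the number was 4 with DESeq2, 0 with all 9 libraries in a single fit (2 at an unadjusted p under 0.05), 3 with the correction, 3 with the block and the correction, 2 at the study's threshold, and 3 to 7 without a replicate. The 3 called lower became 0 with all 9 libraries (0 at an unadjusted p under 0.05), 5 with the correction, 0 at the study's threshold, and 1 to 3 without a replicate. *ABCA1* and *ABCA12* each kept their calls in 13 of 14 alternatives. In sgScr against *LA*, the 3 called higher became 1 with all 9 libraries and 0 to 8 without a replicate, and the 4 called lower became 1 with all 9 libraries, 2 with the block and the correction, and 1 to 18 without a replicate. *ABCC6* kept its call in 14 of 14. The causes were not tested. Shares of all genes called were taken only for the main fit, the length and GC correction and the study's threshold. Counts of members under the other alternatives therefore have no background.

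The replicate numbers did not pair the samples. Deviations of same-numbered libraries correlated at -0.216 in *LA* against Ctrl, -0.0685 in sg*FOS* against sgScr and -0.0266 in sgScr against *LA*. With the replicate block, members called higher and lower numbered 2 and 0 in *LA* against Ctrl, 7 and 3 in sg*FOS* against sgScr, and 1 and 1 in sgScr against *LA*. A crossed pairing of *LA* and Ctrl, chosen after seeing the data, gave 5 higher and 0 lower.

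Depth limited the 12 members that passed no filter, which had 0 to 43 reads over all libraries. Among those tested it limited *ABCA4*, *ABCC11*, *ABCA8*, *ABCA10*, *ABCG4* and *ABCB1*, which had 45 to 160 reads. Where leaving out a replicate left a group with 1 library, that library was assumed to vary like the other group.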

Other observations

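Some members differed widely between replicates of the same group. *ABCG1* had 34 counts in *LA* replicate 1 and 318 in *LA* replicate 2, with 56 to 118 counts in the other libraries. *ABCA10* had 11 and 48 counts in the *LA* replicates, and it shares 318 exonic bases with its neighbour *ABCA5*, which was at 13.0 and 22.2 CPM there. *ABCC9*, a regulatory subunit of potassium channels, had 18 counts in Ctrl replicate 1, 0 in Ctrl replicate 2 and at most 5 in the remaining libraries. *ABCA8* had 2 to 6 counts in Ctrl and *LA* and 13 to 19 in sgScr and sg*FOS*.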
